A study of Mus musculus with 22 samples.

Results

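The p53 target genes described here are 36 mouse genes: Trp53, the gene of the transcription factor p53 itself, its inhibitor gene Mdm4, and genes known to be switched on by p53. They were chosen by name, and all 36 have a row among the 22330 genes of the deposited expression table. They were measured in mouse embryonic stem (ES) cells that lack NF45, the product of Ilf2, or its partners NF90 and NF110. NF45 pairs with either partner to bind double-stranded RNA. RNA-seq with a stranded poly(A) kit covered NF45 KO and NF45 WT cells (2 libraries each). RNA immunoprecipitation and sequencing (RIP-seq), with a kit that removes ribosomal RNA, covered NF90+NF110 KO, NF110 KO and NF90/NF110 WT cells, each with 3 libraries of RNA brought down by an antibody against NF90/NF110 (IP) and 3 of total RNA (input). All cells grew in DMEM with serum, the cytokine LIF, the MEK inhibitor PD0325901 and the GSK3 inhibitor CHIR99021. The NF45 WT libraries are called Rev in the deposited table, and the sources used here give neither what Rev stands for, nor which ES line was used, nor how many clones a genotype has. The study calls the replicates biological, but p-values measure only the spread between these libraries.

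p53 is a transcription factor that DNA damage, nucleolar stress and other insults stabilise. It binds paired half-sites near its targets and turns on genes that stop the cell cycle, start apoptosis, repair DNA and adjust metabolism. One target, Mdm2, encodes the ubiquitin ligase that marks p53 for destruction, so that the pathway limits itself, and the related Mdm4 protein masks the activating domain of p53. Mouse ES cells make p53 in large amounts and are known for weak arrest through its target p21 and for p53-driven loss of the pluripotency factor Nanog.

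Depth, counted as reads recovered from the deposited normalised counts, was, in units of 1000000 reads, 49.1 to 68.8 in the NF45 set, while IPs had 14.1 to 19 and inputs 9.53 to 11.9. The targeted gene Ilf2 stood at 3.92 and 3.79 FPKM (fragments per kilobase of transcript, scaled to library depth) in NF45 KO cells, against 264 and 308 FPKM in NF45 WT cells. The 10 ES cell markers summed to 4187.3 to 5521 FPKM per library. Fibroblast or feeder markers summed to 3.00 to 8.72 FPKM, and Col3a1, Dcn, Lum and Postn were under 0.1 FPKM in every library. Across these bulk libraries, fewer cells of a type and less RNA per cell cannot be told apart.

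To show which members carry letters like those p53 binds, the promoter windows of RefSeq (GRCm38.p6; 250 bases before to 50 after a start) were searched for the p53 response element, written here by its name because its letters are degenerate. A match had at least 18 of 20 positions right over 2 half-sites with at most 3 bases between them, and kept the C and G of both cores. The element reads the same on both strands, so 1 search covers both. A window was at hand for 27 of the 36 genes, and 8 of the 27 held a match (29.6%), against 418 of 27025 genes with a window (1.55%). The 8 matches are shown because they fall in genes that rose and in genes that did not rise in the comparisons that follow; the capitals mark the 4-base cores.
Cdkn1a: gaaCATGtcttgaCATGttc
Ccng1: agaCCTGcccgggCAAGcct
Gtse1: gagCAAGttggggCTTGcct
Ckap2: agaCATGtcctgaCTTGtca
Bax: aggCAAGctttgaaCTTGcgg
Sesn1: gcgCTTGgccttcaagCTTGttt
Cd80: gaaCAGGcctggaCAAGtca
Rps27l: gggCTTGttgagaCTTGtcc
They lie at chr17:29090928-29090947 (Cdkn1a), chr11:40755462-40755481 (Ccng1), chr15:85859945-85859964 (Gtse1), chr8:22186003-22186022 (Ckap2), chr7:45467079-45467099 (Bax), chr10:41887253-41887275 (Sesn1), chr16:38458822-38458841 (Cd80) and chr9:66946296-66946315 (Rps27l). Every one lies upstream of the start of its window except that of Gtse1, which spans it. For a gene with several windows the one with the best match was taken. The starts used for Ccng1, Gtse1, Bax, Sesn1, Cd80 and Rps27l lie inside the gene, downstream of its first base. A match is a description of the letters and does not show binding, and many p53 elements lie outside these windows.

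For 3 of these genes the 250 bases before the start of that window are given, with the element in capitals. They are Cdkn1a, which did not pass the test in any knockout, Ccng1, and Cd80, the target with the highest log2 difference in NF45 KO cells.
Cdkn1a (chr17:29090729-29090978, plus strand): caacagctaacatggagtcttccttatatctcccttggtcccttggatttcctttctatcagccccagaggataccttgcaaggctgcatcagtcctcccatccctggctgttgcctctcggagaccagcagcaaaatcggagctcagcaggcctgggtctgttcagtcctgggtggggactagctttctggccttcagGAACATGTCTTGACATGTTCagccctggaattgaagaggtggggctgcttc
Ccng1 (chr11:40755287-40755536, minus strand): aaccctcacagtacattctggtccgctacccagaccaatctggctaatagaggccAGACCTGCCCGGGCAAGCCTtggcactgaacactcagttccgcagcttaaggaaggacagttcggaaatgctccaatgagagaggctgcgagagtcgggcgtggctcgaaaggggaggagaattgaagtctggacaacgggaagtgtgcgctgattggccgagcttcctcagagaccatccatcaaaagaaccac
Cd80 (chr16:38458683-38458932, plus strand): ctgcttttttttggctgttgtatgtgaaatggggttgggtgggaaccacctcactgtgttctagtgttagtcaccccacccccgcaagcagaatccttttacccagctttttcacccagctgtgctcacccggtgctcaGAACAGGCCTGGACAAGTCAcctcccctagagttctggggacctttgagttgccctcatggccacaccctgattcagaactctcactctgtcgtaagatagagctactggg

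NF45 KO cells held more RNA of most p53 targets than NF45 WT cells. Of the 34 members that reached 1 FPKM in at least 2 libraries, 24 were called higher and 0 lower with limma (Benjamini-Hochberg adjusted p under 0.05 over 11481 genes), while 5 more had a positive and 5 a negative difference. Over all genes tested, 11.7% were called higher and 16% lower. The median log2 difference of the 34 members was 0.67, against -0.03 over all genes. Differences are KO minus WT of log2(FPKM + 1), given ± SE, and understate the change of genes of low level. Fas, the gene of the death receptor CD95, and Dram1, an autophagy gene, did not reach the minimum. Fas was at 0.464 and 0.356 FPKM in NF45 KO cells, against 0.0935 and 0.0227 FPKM in NF45 WT cells, and Dram1 at 0.106 and 0.12 FPKM in NF45 KO cells, against 0.0465 and 0.0851 FPKM in NF45 WT cells.

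**Figure D1:**
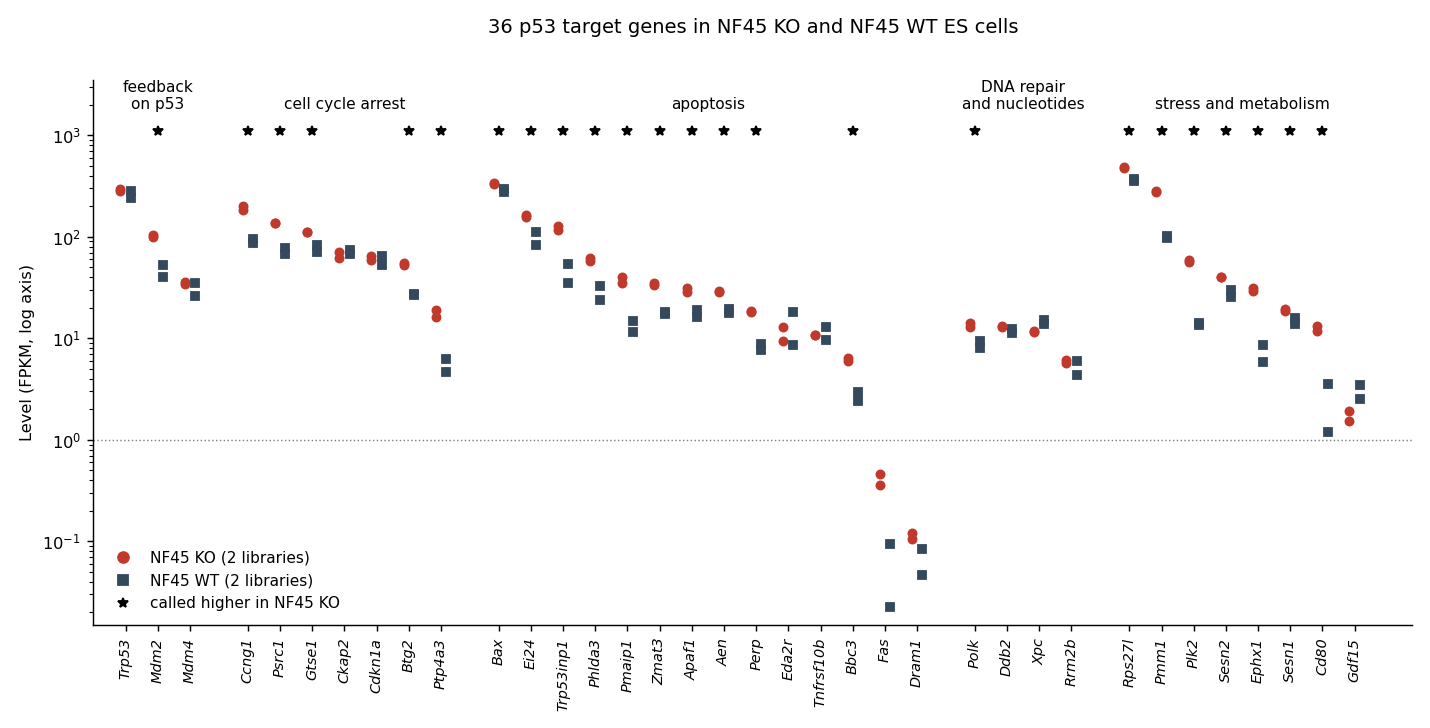
FPKM on a log axis of all 36 p53 targets in each NF45 KO library (circles, left of each gene's tick) and NF45 WT library (squares, right of it), grouped by role and ordered by NF45 KO mean; stars mark the 24 members called higher with limma and the dotted line marks 1 FPKM. Plk2, Ephx1, Cd80, Pmm1 and Trp53inp1 show wide gaps between the groups, while Cdkn1a and Ckap2 overlap. The Trp53 values lie close together without overlap.

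Of the 3 genes grouped here as feedback on p53 (Mdm2, Trp53 and Mdm4), only Mdm2 was called. Mdm2 was at 103 and 100.5 FPKM in NF45 KO libraries, against 53.4 and 39.98 FPKM in NF45 WT libraries, a difference of 1.13 ± 0.15 (limma adjusted p = 0.0116). Both NF45 KO libraries stood above both NF45 WT libraries. Trp53 RNA itself was at 285 and 294 FPKM in NF45 KO libraries, against 241 and 283 FPKM in NF45 WT libraries. It did not overlap between the groups, by a small margin, and was not called (0.15 ± 0.09, limma adjusted p = 0.276). Mdm4 was at 36.1 and 34.1 FPKM in NF45 KO cells, against 34.7 and 26.4 FPKM in NF45 WT cells, with overlapping libraries and no call (limma adjusted p = 0.321).

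Of the 7 genes of cell cycle arrest, 5 rose and 2 were not called. The best known of them was not among the calls. Cdkn1a, which encodes the cyclin-dependent kinase inhibitor p21, was at 64.6 and 59.6 FPKM in NF45 KO libraries, against 64.5 and 53.2 FPKM in NF45 WT libraries (0.08 ± 0.11, limma adjusted p = 0.604). Its values overlapped between the groups. Its promoter holds a match to 19 of the 20 positions of the element. Ccng1, the gene of cyclin G1, which brings a phosphatase to Mdm2, was at 199 and 186 FPKM in NF45 KO libraries, against 94.4 and 87.8 FPKM in NF45 WT libraries (1.07 ± 0.07, limma adjusted p = 0.00693). Ptp4a3, which encodes the phosphatase PRL-3, was at 18.9 and 16.1 FPKM in NF45 KO cells, against 6.25 and 4.71 FPKM in NF45 WT cells (1.52 ± 0.15, limma adjusted p = 0.00783). Ccng1 and Ptp4a3 did not overlap between the groups. Btg2, an antiproliferative gene (0.96 ± 0.06), and the microtubule-associated Psrc1 (0.91 ± 0.08) and Gtse1 (0.55 ± 0.09) rose as well, while Ckap2, a cytoskeletal gene, was not called (-0.10 ± 0.09). Ckap2 lies on chromosome 8, whose 630 tested genes had a median difference of -0.50.

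Apoptosis was the role with the most members, and 10 of the 12 tested rose, with a median difference of 0.83. The median was higher for cell cycle arrest (0.91) and for stress and metabolism (1.01). Trp53inp1, a nuclear protein that promotes the death programme of p53, was at 127 and 117 FPKM in NF45 KO libraries, against 53.6 and 34.8 FPKM in NF45 WT libraries (1.47 ± 0.21, limma adjusted p = 0.0143). Pmaip1, which encodes the BH3-only protein NOXA, was at 35.4 and 40.2 FPKM in NF45 KO cells, against 14.8 and 11.6 FPKM in NF45 WT cells (1.46 ± 0.13, limma adjusted p = 0.00757). Perp, which encodes a membrane protein of desmosomes and apoptosis, was at 18.1 and 18.6 FPKM in NF45 KO cells, against 7.61 and 8.77 FPKM in NF45 WT cells (1.08 ± 0.09, limma adjusted p = 0.00693). In these 3 genes each NF45 KO library was above each NF45 WT library. Phlda3, an inhibitor of Akt, followed at 1.07 ± 0.16. Bbc3, the gene of the BH3-only protein PUMA, differed by 0.97 ± 0.11, but from a low level of 6.00 and 6.37 FPKM in NF45 KO libraries, against 2.95 and 2.42 FPKM in NF45 WT libraries. Zmat3, Apaf1 (the core of the apoptosome), Ei24 and the nuclease gene Aen rose by 0.61 to 0.92 on the log2 scale. Bax, the pore-forming effector that binds BH3-only proteins, had the smallest called difference of the 24 (0.24 ± 0.06, limma adjusted p = 0.0458), at 334 and 343 FPKM in NF45 KO libraries, against 278 and 296 FPKM in NF45 WT libraries. The death receptor gene Tnfrsf10b (-0.06 ± 0.15) and the receptor gene Eda2r (-0.18 ± 0.37) overlapped between the groups.

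DNA repair genes mostly did not pass. Only Polk, a translesion polymerase gene, rose among the 4 (0.60 ± 0.11, limma adjusted p = 0.0221). Ddb2, which recognises damage in nucleotide excision repair, was at 12.8 and 13.3 FPKM in NF45 KO cells, against 12.4 and 11.4 FPKM in NF45 WT cells. Xpc, which acts beside it, was at 11.8 and 11.6 FPKM in NF45 KO cells, against 15.1 and 13.7 FPKM in NF45 WT cells (-0.28 ± 0.08, limma adjusted p = 0.0594). Neither was called, nor was Rrm2b, a ribonucleotide reductase subunit gene (0.17 ± 0.15). Xpc lies on chromosome 6, whose 542 tested genes had a median difference of -0.48.

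Among the 8 genes of stress and metabolism 7 rose, among them the 3 highest differences of all members. Plk2, a polo-like kinase gene of the centriole cycle, was at 59.5 and 55.9 FPKM in NF45 KO libraries, against 13.5 and 14.1 FPKM in NF45 WT libraries (1.99 ± 0.06, limma adjusted p = 0.00443). Ephx1, which encodes microsomal epoxide hydrolase, was at 31.6 and 29.1 FPKM in NF45 KO cells, against 8.59 and 5.80 FPKM in NF45 WT cells (1.96 ± 0.18, limma adjusted p = 0.00757). Cd80, which encodes a ligand of the T cell surface proteins CD28 and CTLA4, was at 13.3 and 11.9 FPKM in NF45 KO cells, against 3.55 and 1.20 FPKM in NF45 WT cells (2.10 ± 0.36, limma adjusted p = 0.0207). Cd80 had the widest error of the 24, since its NF45 WT libraries were far apart. Pmm1, a phosphomannomutase gene, was at 282 and 279.6 FPKM in NF45 KO cells, against 103 and 96.8 FPKM in NF45 WT cells (1.49 ± 0.06, limma adjusted p = 0.0055). The sestrin genes Sesn2 (0.53 ± 0.09) and Sesn1 (0.36 ± 0.09), which restrain mTORC1, and Rps27l (0.40 ± 0.05), a ribosomal protein paralog that can share reads with Rps27, rose less. Gdf15, a stress cytokine gene, had the lowest difference of the members (-0.54 ± 0.16, limma adjusted p = 0.0637) at 1.91 and 1.53 FPKM in NF45 KO libraries, against 3.44 and 2.53 FPKM in NF45 WT libraries. It also lies on chromosome 8, and its difference is close to the median of that chromosome (-0.50).

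Of 26 regulators of p53 tested, 3 rose and 3 fell, with a median of -0.03. These shares are near or under those of all genes (11.7% higher and 16% lower). Trp73, a relative of p53, rose (1.42 ± 0.11, limma adjusted p = 0.00693), and Cdkn2a, whose ARF product holds Mdm2 off p53, fell (-0.83 ± 0.07, limma adjusted p = 0.00693). Cdkn2a was at 8.36 and 8.24 FPKM in NF45 KO libraries, against 15.9 and 15.1 FPKM in NF45 WT libraries. Rchy1, a ubiquitin ligase gene for p53, rose by 0.39 and the kinase gene Hipk2, on chromosome 6, fell by 0.62 on the log2 scale. None of the 11 ribosomal protein genes and other genes whose products bind Mdm2 was called with limma (median 0.08; 2 had an unadjusted p under 0.05, both higher). A further 35 reported p53 targets gave 16 higher and 4 lower, with a median of 0.29; Lpin1 (1.21), Dcxr (1.20) and Zfp365 (1.15) rose, and Nupr1, a stress-induced gene, fell (-1.32 ± 0.32, limma adjusted p = 0.0445). Of 30 cell cycle genes that p21 represses through the DREAM complex, 5 rose and 5 fell, with a median of -0.07, beside the same 11.7% and 16% of all genes; Mki67 (-0.58), Cenpf (-0.52), Cenpa (-0.50) and Mcm5 (-0.44, on chromosome 8) were among those that fell.

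The authors' deposited table had 23 members higher and 1 lower, Xpc, in NF45 KO cells at an adjusted p under 0.05, with 14% of all its genes higher. Without NF45 KO replicate 1 or without NF45 KO replicate 2, limma called 0 members and 0 genes in all, against 30 and 28 members without NF45 WT replicate 1 or 2; the median of the members was then between 0.58 and 0.76 in each of the 4 fits that leave out 1 library. Whole chromosomes moved with genotype. The median log2 difference of the tested genes was -0.48 on chromosome 6, -0.50 on chromosome 8, -0.24 on chromosome 13 and -0.25 on chromosome 14, and between -0.04 and 0.05 on the other chromosomes that hold members. By library, the median log2 deviation of chromosome 6 genes was -0.25 and -0.24 in NF45 KO cells, against 0.27 and 0.24 in NF45 WT cells. These chromosome levels and the knockout cannot be told apart in these 4 libraries. Among the members, Xpc lies on chromosome 6, Ckap2 and Gdf15 on chromosome 8, and Tnfrsf10b, Polk and Plk2 on chromosomes 13 or 14. Of these 6, Polk and Plk2 were called, both higher. With each library centred per chromosome, 24 members were called higher and 0 lower. The members other than these 6 lie on chromosomes with medians between -0.04 and 0.05, so centring could change them little. Neural markers also moved: 3 of the 5 were tested and fell (Nes, and Tubb3 and Sox1, which lie on chromosome 8), with summed levels of 17.9 to 18.4 FPKM in NF45 KO libraries and 48.3 to 56.9 FPKM in NF45 WT libraries, Neurog2 under 0.1 FPKM in all 4. Trophectoderm markers summed to 52.1 to 56.9 FPKM in NF45 KO libraries and 34.3 to 48.8 FPKM in NF45 WT libraries, with 2 of 4 tested higher and 0 lower. Primitive endoderm markers summed to 3.70 to 4.69 FPKM in NF45 KO libraries and 5.80 to 12.0 FPKM in NF45 WT libraries, with 0 of 2 tested called. Of the fibroblast markers, Thy1 alone was called (0.66 ± 0.11), and the summed level was 3.22 to 4.21 FPKM in NF45 KO libraries and 3.00 to 5.28 FPKM in NF45 WT libraries. Of the ES cell markers 3 rose, among them Tdgf1 (0.59), and 3 fell: Klf4 (-0.65), Zfp42 (-0.40, on chromosome 8) and Nanog. Nanog, on chromosome 6 with its median of -0.48, was at 627 and 621 FPKM in NF45 KO libraries, against 793 and 774 FPKM in NF45 WT libraries (-0.33 ± 0.05, limma adjusted p = 0.0144). The part of any of these cells in the p53 target levels was not tested.

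**Figure D2:**
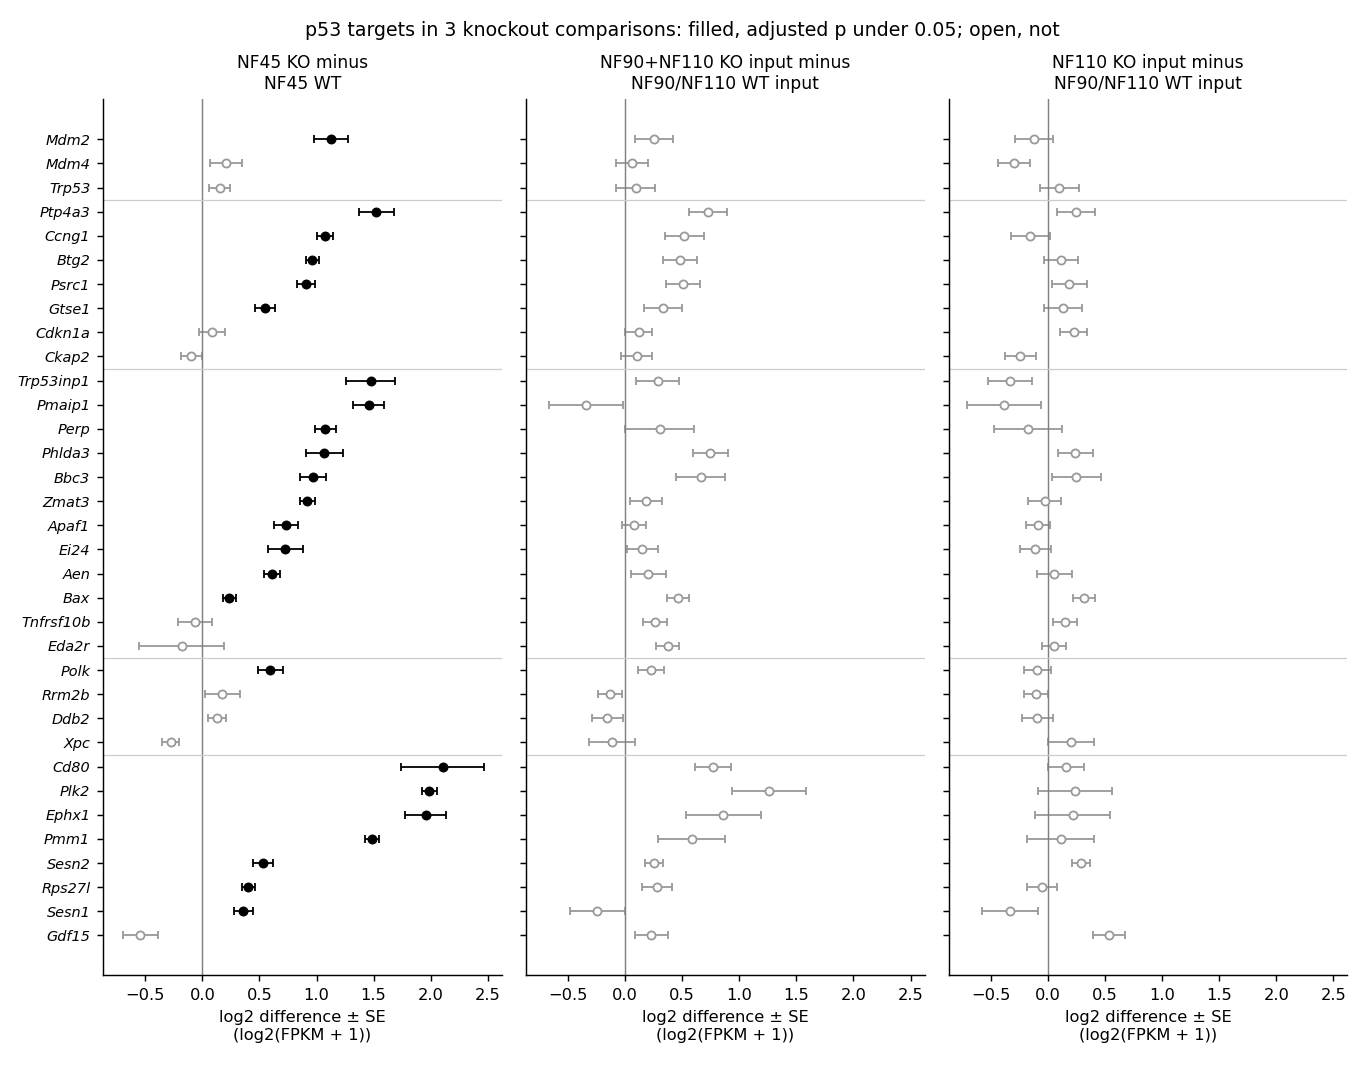
Log2 differences ± SE (x axis) of the 34 tested p53 targets (y axis, grouped by role between grey lines) in NF45 KO minus NF45 WT, NF90+NF110 KO input minus NF90/NF110 WT input, and NF110 KO input minus NF90/NF110 WT input, the last 2 sharing their WT inputs. Filled points passed the limma test: 24 in the left panel and 0 in the other panels, where the medians are 0.26 and 0.08.

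With both NF90 and NF110 lost, the median difference was smaller, and no member passed the limma test over all genes. Kit, depth and cells differ from the NF45 set, so the sizes were not tested against each other. In NF90+NF110 KO inputs, 29 of the 34 members had a positive difference against NF90/NF110 WT inputs and 5 a negative one, with a median of 0.26 against -0.01 over all genes. limma called 0 members, and 0.0884% of all 12444 genes higher. At an unadjusted p under 0.05, 13 members were higher and 0 lower, against 6.52% of all genes higher and 8.27% lower. In 9 members all 3 NF90+NF110 KO inputs lay above all 3 NF90/NF110 WT inputs, which 8.81% of all genes did, and in 1, the nucleotide supply gene Rrm2b, all lay below (12.7% of all genes). edgeR called 0 members, DESeq2 on the recovered reads 6 higher (1.07% of genes), and the authors' deposited table had 7 higher and 0 lower (2.05% of genes).

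Plk2 had the largest difference (1.26 ± 0.33, limma adjusted p = 0.152), at 12.9, 8.26 and 16.9 FPKM in NF90+NF110 KO inputs, against 3.11, 3.81 and 7.50 FPKM in NF90/NF110 WT inputs. Cd80 was at 5.09, 6.33 and 4.75 FPKM in NF90+NF110 KO inputs, against 2.90, 2.31 and 3.05 FPKM in NF90/NF110 WT inputs (0.77 ± 0.16, limma adjusted p = 0.102). Phlda3 was at 64.9, 52.2 and 69.8 FPKM in NF90+NF110 KO inputs, against 30.6, 36.3 and 43.6 FPKM in NF90/NF110 WT inputs (0.75 ± 0.16, limma adjusted p = 0.108). In all of them each NF90+NF110 KO input stood above each NF90/NF110 WT input. Bax was at 352, 303 and 354 FPKM in NF90+NF110 KO inputs, against 241, 238 and 251 FPKM in NF90/NF110 WT inputs (0.46 ± 0.10, limma adjusted p = 0.102), again with no overlap. Ptp4a3 was at 19.9, 14.9 and 22.1 FPKM in NF90+NF110 KO inputs, against 8.84, 12.4 and 11.8 FPKM in NF90/NF110 WT inputs (0.73 ± 0.17). Psrc1 was at 119.6, 95.01 and 130.2 FPKM in NF90+NF110 KO inputs, against 70.1, 82.6 and 88.3 FPKM in NF90/NF110 WT inputs (0.51 ± 0.15). Both did not overlap between the groups. Eda2r, a receptor gene, was at 16.9, 14.6 and 15.7 FPKM in NF90+NF110 KO inputs, against 11.05, 12.1 and 12.6 FPKM in NF90/NF110 WT inputs (0.37 ± 0.10), and also did not overlap. Btg2 was at 15.2, 10.6 and 16.7 FPKM in NF90+NF110 KO inputs, against 9.03, 9.08 and 11.01 FPKM in NF90/NF110 WT inputs (0.48 ± 0.15), where NF90+NF110 KO input 2 lay within the WT range. Ephx1 had the second-largest difference and a wide error (0.86 ± 0.33).

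The feedback genes and Cdkn1a overlapped between these inputs. Mdm2 was at 41.7, 30.4 and 46.99 FPKM in NF90+NF110 KO inputs, against 30.6, 29.7 and 38.3 FPKM in NF90/NF110 WT inputs (0.25 ± 0.17). Cdkn1a was at 56.3, 63.97 and 65.98 FPKM in NF90+NF110 KO inputs, against 57.6, 48.2 and 66.6 FPKM in NF90/NF110 WT inputs (0.12 ± 0.12). Trp53 was at 228, 179 and 244 FPKM in NF90+NF110 KO inputs, against 178, 201 and 228 FPKM in NF90/NF110 WT inputs (0.09 ± 0.17), with overlap again. Mdm4 was at 48.3, 36.6 and 47.4 FPKM in NF90+NF110 KO inputs, against 39.6, 40.5 and 46.1 FPKM in NF90/NF110 WT inputs (0.06 ± 0.14). None of the 4 was called with limma. By role, the medians were 0.48 for arrest, 0.43 for stress and metabolism, 0.27 for apoptosis, 0.09 for feedback and -0.12 for repair. Pmaip1, which rose in NF45 KO cells, had the lowest difference of the members (-0.34 ± 0.32), at 11.2, 17.5 and 14.2 FPKM in NF90+NF110 KO inputs, against 20.3, 26.03 and 11.3 FPKM in NF90/NF110 WT inputs; whether the 2 knockouts differ in it was not tested, since kit and cells differ.

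**Figure D3:**
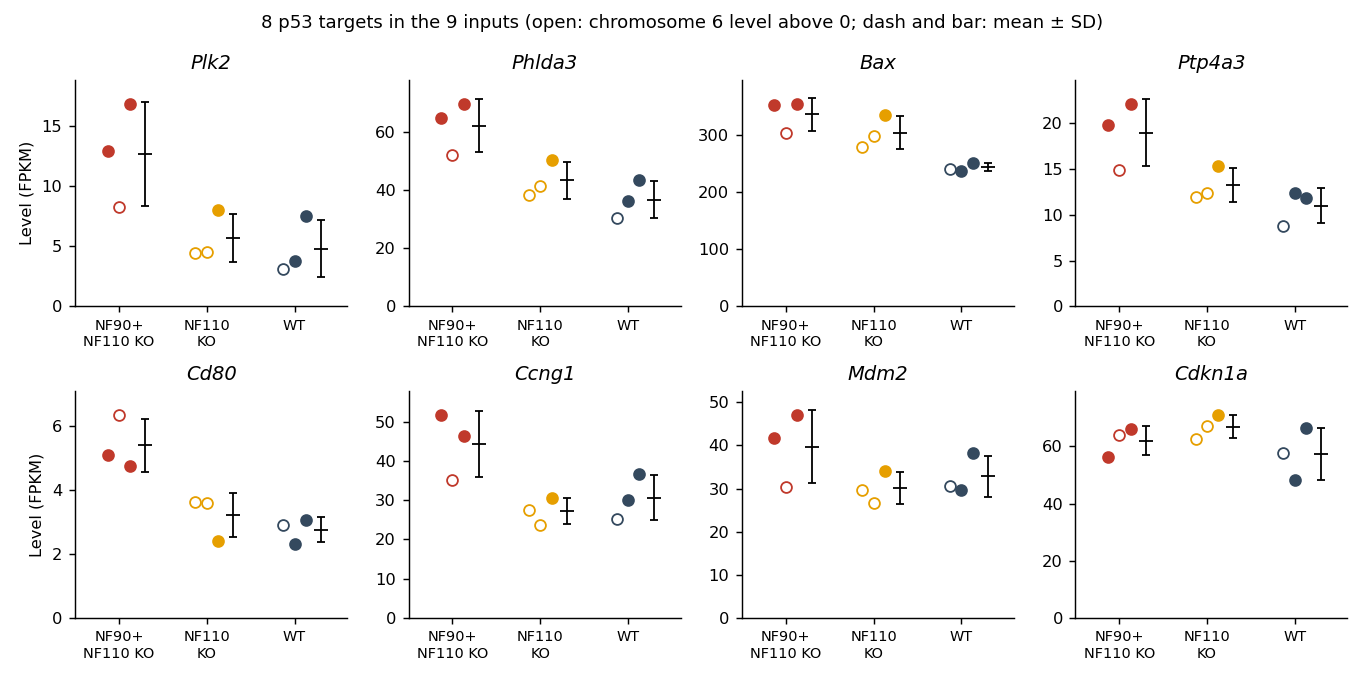
FPKM of 8 p53 targets in each of the 9 inputs (points; open where the median of chromosome 6 genes was above the mean of the inputs), in NF90+NF110 KO, NF110 KO and NF90/NF110 WT cells, with mean ± SD of 3 inputs. Plk2, Phlda3, Bax, Ptp4a3 and Cd80 do not overlap between NF90+NF110 KO and WT inputs, Cdkn1a and Mdm2 do.

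In NF110 KO inputs, which lack NF110 only, the members were spread about 0. Against NF90/NF110 WT inputs 19 were positive and 15 negative, with a median of 0.08 against 0.01 over all genes. limma called 0 members and 0.00804% of all genes higher. At an unadjusted p under 0.05, 3 members were higher and 0 lower (7.25% of all genes higher and 9.17% lower), and the same 3 lay above WT in all inputs (10.3% of all genes did), with Rrm2b below in all (12.3%). These were Gdf15, Sesn2 and Bax. Gdf15 was at 40.6, 50.7 and 36.1 FPKM in NF110 KO inputs, against 30.8, 26.7 and 28.8 FPKM in NF90/NF110 WT inputs (0.54 ± 0.14, limma adjusted p = 0.171). Sesn2 was at 59.1, 68.1 and 64.7 FPKM in NF110 KO inputs, against 51.4, 51.5 and 53.2 FPKM in NF90/NF110 WT inputs (0.29 ± 0.08, limma adjusted p = 0.173). Bax was at 279, 298 and 335 FPKM in NF110 KO inputs, against 241, 238 and 251 FPKM in NF90/NF110 WT inputs (0.32 ± 0.10, limma adjusted p = 0.186). In none of the 3 did the groups overlap. Next by unadjusted p, Mdm4 was at 40.4, 29.1 and 33.4 FPKM in NF110 KO inputs, against 39.6, 40.5 and 46.1 FPKM in NF90/NF110 WT inputs (-0.30 ± 0.14). Cdkn1a was at 62.7, 67.3 and 70.9 FPKM in NF110 KO inputs, against 57.6, 48.2 and 66.6 FPKM in NF90/NF110 WT inputs (0.23 ± 0.12). Ckap2 was at 36.7, 30.5 and 33.7 FPKM in NF110 KO inputs, against 35.4, 41.6 and 42.95 FPKM in NF90/NF110 WT inputs (-0.24 ± 0.14). All of these overlapped between the groups. Trp53inp1 was at 17.8, 15.5 and 20.1 FPKM in NF110 KO inputs, against 18.1, 22.6 and 28.1 FPKM in NF90/NF110 WT inputs (-0.33 ± 0.19). Phlda3 was at 38.5, 41.5 and 50.6 FPKM in NF110 KO inputs, against 30.6, 36.3 and 43.6 FPKM in NF90/NF110 WT inputs (0.24 ± 0.16). Both overlapped as well, as did the feedback genes that follow. Mdm2 was at 29.6, 26.6 and 34.1 FPKM in NF110 KO inputs, against 30.6, 29.7 and 38.3 FPKM in NF90/NF110 WT inputs (-0.12 ± 0.17). Trp53 was at 185, 198 and 275 FPKM in NF110 KO inputs, against 178, 201 and 228 FPKM in NF90/NF110 WT inputs (0.10 ± 0.17). edgeR called 0 members, DESeq2 on the recovered reads the same 3 as higher (1.17% of genes), and the authors' deposited table had 3 higher and 0 lower (1.39% of genes).

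The inputs of the 2 knockouts were also set against each other. In NF90+NF110 KO inputs 27 members lay above NF110 KO inputs and 7 below, with a median of 0.32 against -0.01 over all genes. limma called 0 members, and 0.00804% of genes higher; at an unadjusted p under 0.05, 12 members were higher and 0 lower (4.42% of genes higher). edgeR called 0 and DESeq2 1, Ccng1 (0.137% of genes higher), which was at 51.7, 35.1 and 46.4 FPKM in NF90+NF110 KO inputs and 27.5, 23.8 and 30.5 FPKM in NF110 KO inputs. In the 4 lists of other pathway genes limma called 0 genes in each of the 3 comparisons of inputs. The counts that follow are at an unadjusted p under 0.05 and against NF90/NF110 WT inputs. The further p53 targets had 7 of 37 higher and 0 lower in NF90+NF110 KO inputs, where 6.52% of all genes were higher. In NF110 KO inputs they had 2 of 37 higher and 0 lower, where 7.25% of all genes were higher. The regulators of p53 had 0 of 27 higher and 4 lower in NF90+NF110 KO inputs, where 8.27% of all genes were lower, and 1 higher and 6 lower in NF110 KO inputs, where 9.17% of all genes were lower.

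The level of chromosome 6 genes split the inputs within each genotype and moved opposite to the median of the p53 targets. It was high, with median log2 deviations of 0.22 to 0.26, in NF90+NF110 KO input 2, in NF110 KO inputs 1 and 2, and in input 1 of NF90/NF110 WT, and low, at -0.22 to -0.15, in the other 5 inputs. Among the 4 inputs with the high level, the median deviation of the 34 members from their mean was -0.03 in the NF90+NF110 KO input, -0.09 and -0.15 for NF110 KO, and -0.25 for NF90/NF110 WT. Among the 5 with the low level it was 0.31 and 0.27 for NF90+NF110 KO, 0.07 for NF110 KO, and -0.12 and 0.01 for NF90/NF110 WT. At either level the NF90+NF110 KO inputs were highest and the NF90/NF110 WT inputs lowest. With only 1 or 2 inputs per genotype and level, this order was not tested. Plk2 followed this order: with the high level it was at 8.26 FPKM in the NF90+NF110 KO input, 4.48 and 4.56 FPKM for NF110 KO and 3.11 FPKM in NF90/NF110 WT. With the chromosome 6 level as a term in the fit, limma called 15 members higher and 0 lower in NF90+NF110 KO (4.23% of genes higher), 9 and 0 in NF110 KO (2.8% of genes higher), each against NF90/NF110 WT, and 3 and 0 in NF90+NF110 KO against NF110 KO (0.209% of genes higher). Phlda3 was among the calls in all 3 fitted differences, at 0.72, 0.34 and 0.38. The part of the chromosome 6 level in the p53 target levels was not tested.

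**Figure D4:**
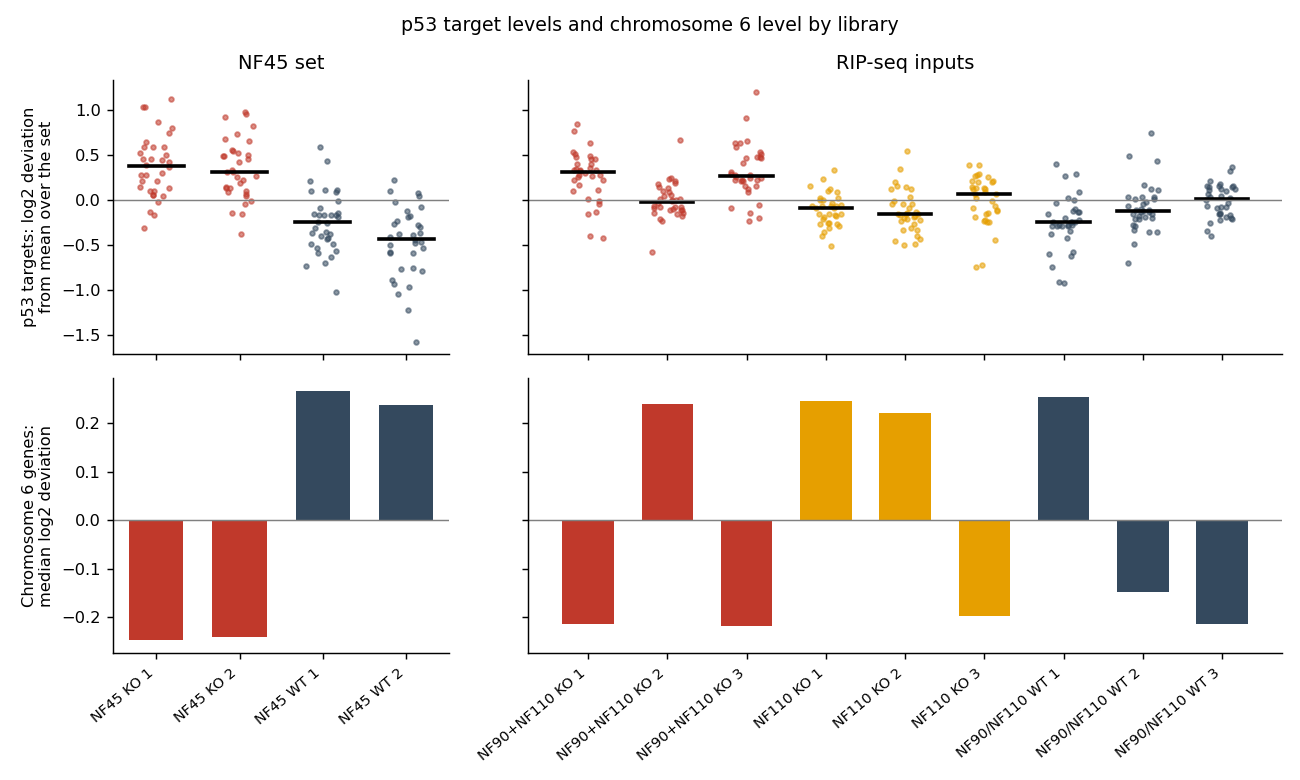
Upper row: log2 deviation of the 34 tested p53 targets (points) and their median (bar) in each library from the mean over the set, for the NF45 set and the 9 inputs; lower row: median log2 deviation of chromosome 6 genes in the same libraries. Within each genotype of the inputs, libraries with bars above 0 in the lower row have lower p53 target medians than those with bars below 0.

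IP over input asked which of these RNAs come down with NF90 and NF110, and the NF90+NF110 KO cells, which should lack what the antibody binds, give the background. The members went both ways in all genotypes. In NF90+NF110 KO cells limma called 9 of 34 higher and 14 lower in the IP (23.4% and 21.1% of all genes), in NF110 KO cells 6 and 10 (21.1% and 17%), and in NF90/NF110 WT cells 11 and 12 (28.9% and 23.6%). The medians of the members were -0.09, -0.05 and -0.07 in the same order. Over all genes each median was within 0.02 of 0. A fit without the pairing of IP and input called 4, 4 and 8 members.

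Mdm4 RNA was the most depleted in the NF90/NF110 WT IP. Its IP minus input difference on the log2 scale was -0.59, -0.77 and -0.63 in the 3 NF90+NF110 KO experiments, -1.01, -0.72 and -0.60 in NF110 KO and -1.18, -1.18 and -1.08 in NF90/NF110 WT. Depletion was thus weaker in every NF90+NF110 KO experiment than in every NF90/NF110 WT experiment. The difference in enrichment, NF90+NF110 KO minus NF90/NF110 WT, was 0.48 ± 0.10 (limma adjusted p = 0.0177). Rps27l was at -1.12, -1.24 and -0.98 in NF90+NF110 KO experiments, -0.71, -0.72 and -0.87 in NF110 KO and -0.91, -0.84 and -1.09 in NF90/NF110 WT, and so was also depleted where the antibody should have no target. Trp53inp1 was at -0.42, -0.57 and -0.21 in NF90+NF110 KO experiments, -0.29, -0.22 and -0.07 in NF110 KO and -0.63, -0.79 and -0.76 in NF90/NF110 WT. Eda2r was at -0.39, -0.48 and -0.35 in NF90+NF110 KO experiments, -0.29, -0.36 and -0.16 in NF110 KO and -0.33, -0.64 and -0.47 in NF90/NF110 WT. Both were called lower with limma in all 3 genotypes. In the authors' deposited table Eda2r was lower in all 3 and Trp53inp1 in NF90/NF110 WT cells alone.

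The 4 members highest in the NF90/NF110 WT IP were Phlda3, Gtse1, Xpc and Bbc3, and limma also called all of them higher in NF90+NF110 KO cells. In the authors' deposited table none of the 4 passed in NF90+NF110 KO cells, and only Phlda3 and Gtse1 passed in NF90/NF110 WT cells. Phlda3 was at 0.38, 0.51 and 0.36 in NF90+NF110 KO experiments, 0.56, 0.42 and 0.44 in NF110 KO and 0.60, 0.76 and 0.65 in NF90/NF110 WT. Gtse1 was at 0.19, 0.33 and 0.13 in NF90+NF110 KO experiments, 0.45, 0.36 and 0.25 in NF110 KO and 0.63, 0.53 and 0.51 in NF90/NF110 WT. Each NF90/NF110 WT experiment was above each NF90+NF110 KO experiment in both. Xpc was at 0.44, 0.38 and 0.20 in NF90+NF110 KO experiments, 0.26, 0.26 and 0.33 in NF110 KO and 0.38, 0.54 and 0.42 in NF90/NF110 WT. Bbc3 was at 0.35, 0.26 and -0.04 in NF90+NF110 KO experiments, 0.12, -0.05 and 0.06 in NF110 KO and 0.29, 0.44 and 0.40 in NF90/NF110 WT. Bbc3 was not called in NF110 KO cells (0.04 ± 0.07). Mdm2 was at -0.19 ± 0.05 in NF90+NF110 KO and -0.26 ± 0.05 in NF90/NF110 WT cells, called lower with limma in both, and Cdkn1a was called in neither (-0.02 ± 0.06 and 0.08 ± 0.06). In the authors' deposited table Mdm2 passed in neither.

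Trp53 RNA was among the few whose enrichment depended on genotype. Its IP minus input difference was -0.09, 0.03 and -0.14 in NF90+NF110 KO experiments, 0.16, 0.05 and 0.02 in NF110 KO and 0.25, 0.25 and 0.27 in NF90/NF110 WT. All NF90/NF110 WT experiments were above all NF90+NF110 KO ones, and the fitted difference, NF90+NF110 KO minus NF90/NF110 WT, was -0.33 ± 0.06 (limma adjusted p = 0.0166). In FPKM, Trp53 was at 213, 183 and 221 in NF90+NF110 KO IPs, against 213, 239.5 and 275 in NF90/NF110 WT IPs. Gtse1 (-0.34 ± 0.07, limma adjusted p = 0.0209) and Phlda3 (-0.25 ± 0.07, limma adjusted p = 0.0496) were less enriched in NF90+NF110 KO cells too. Cd80 was at 0.03, 0.06 and 0.32 in NF90+NF110 KO experiments, 0.01, -0.09 and 0.25 in NF110 KO and -0.47, -0.21 and -0.38 in NF90/NF110 WT, and so was below 0 in every NF90/NF110 WT experiment and above 0 in every NF90+NF110 KO experiment (0.49 ± 0.13, limma adjusted p = 0.0463). In all, 2 members were called higher and 3 lower in this difference, against 1.21% and 4.61% of all genes. In NF110 KO minus NF90/NF110 WT, Trp53inp1 and Mdm4 were called higher and Sesn2, Gdf15 and Bbc3 lower (2 and 3, against 6.8% and 6.55% of genes), and in NF90+NF110 KO minus NF110 KO, Sesn2 higher and Rps27l lower (1 and 1, against 3.91% and 6%). The input differences between genotypes enter these values, and Cd80, Phlda3, Gdf15 and Sesn2 are among the targets whose inputs did not overlap. Leaving out NF90/NF110 WT experiment 1 or 2, or NF90+NF110 KO experiment 1 or 3, left 0 members called for NF90+NF110 KO minus NF90/NF110 WT, and a fit without the pairing of IP and input also gave 0. NF110 KO minus NF90/NF110 WT gave 0 without NF110 KO experiment 2 or 3 or NF90/NF110 WT experiment 3, and 14 without NF110 KO experiment 1. NF90+NF110 KO minus NF110 KO gave 0 without NF110 KO experiment 2 or NF90+NF110 KO experiment 1.

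**Figure D5:**
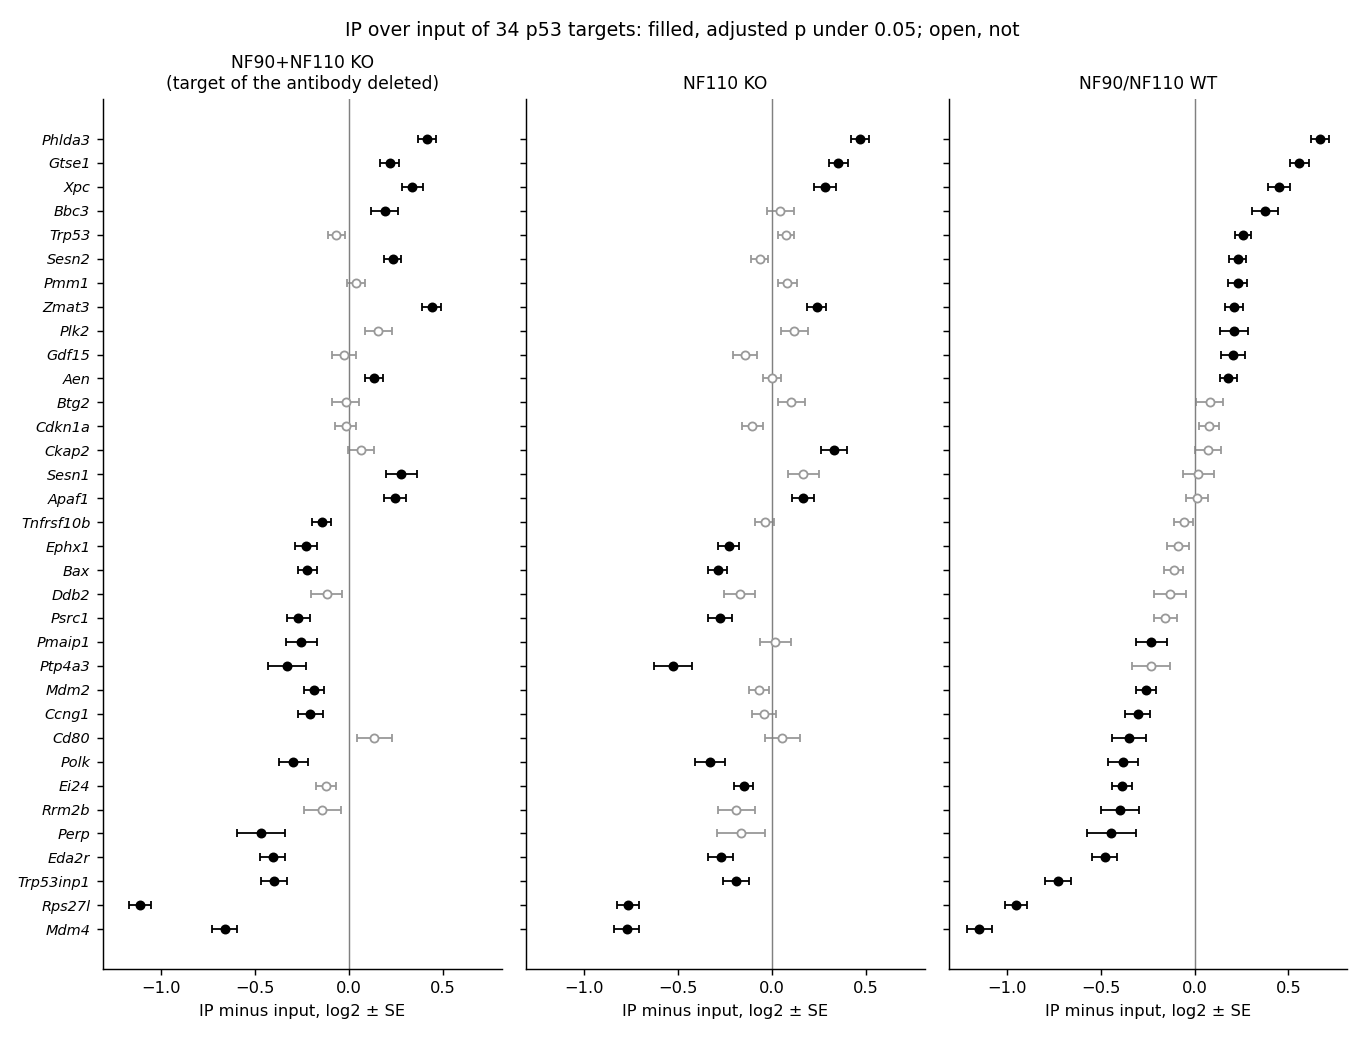
IP minus input on the log2(FPKM + 1) scale ± SE (x axis) of 34 p53 targets (y axis, ordered by NF90/NF110 WT) in NF90+NF110 KO, NF110 KO and NF90/NF110 WT cells; filled points passed the limma test. Rps27l, Mdm4 and Trp53inp1 lie left of 0 and Phlda3, Gtse1 and Xpc right of 0 in all 3 panels.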

How the data were processed

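Gene-level FPKM values were deposited by the authors, per the file headers, in 1 table for all libraries. A second table held read counts normalised by library size with DESeq2 (a signal), with log2 fold changes and adjusted p-values per comparison, also made by the authors and deposited. TopHat2 2.0.10, Cufflinks 2.2.1, Cuffnorm, HTSeq 0.6.1 and mm10 are named in the submitters' processing notes, without their roles. Members were chosen by name, and members and lists were chosen with earlier results of these data known. All 36 members may be named. Values in every library are given for Cdkn1a, Mdm2, Trp53 and Mdm4, for the 10 called members with the largest NF45 differences, for the 8 lowest p per input comparison with WT, and for the 4 highest, 4 lowest and up to 4 lowest p for a genotype difference in the IP. Up to 4 genes are named per list. Values of Fas, Dram1, Bax, Bbc3, Ddb2, Xpc and Gdf15 in NF45 cells and of Pmaip1 and Ccng1 in inputs were chosen after they were seen.

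limma 3.58.1 in R 4.3.3 (trend and robust, two-sided, Benjamini-Hochberg over all genes tested) was fitted to log2(FPKM + 1) for genes reaching 1 FPKM in 2 or more libraries of the NF45 set or 3 or more of the RIP-seq set. The fits covered the 4 NF45 libraries (2 residual degrees of freedom), the 9 inputs (6) and all 18 RIP-seq libraries with each experiment as a term (6), since the study pairs each IP with its input; their deviations correlated at 0.548 to 0.835. Same-numbered inputs correlated at -0.477 to 0.656 and were not treated as paired. Whole reads were recovered from the normalised counts (100% of values within 0.1 of a whole number) and tested with edgeR 4.0.16 and DESeq2 1.42.0 as alternatives. The fits were tested on simulated data. A check of the NF90+NF110 KO and NF110 KO labels is not reported here. Alternatives were another pseudocount, no filter, other scalings, chromosome centring or a chromosome 6 term, replicate blocks and leaving out libraries.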

Additional observations from a re-analysis of the deposited data

Results flagged for a closer look

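The members below were flagged because their IP over input difference depended on genotype, by a limma test of the difference in enrichment itself over 12693 genes (Benjamini-Hochberg). In NF90+NF110 KO minus NF90/NF110 WT, the differences were -0.33 for Trp53 (adjusted p = 0.0166), 0.48 for Mdm4 (0.0177), -0.34 for Gtse1 (0.0209), 0.49 for Cd80 (0.0463) and -0.25 for Phlda3 (0.0496). In NF110 KO minus NF90/NF110 WT, the limma differences were 0.53 for Trp53inp1 (adjusted p = 0.0171), -0.29 for Sesn2 (0.0214), 0.37 for Mdm4 (0.0291), -0.35 for Gdf15 (0.0302) and -0.33 for Bbc3 (0.0483). In NF90+NF110 KO minus NF110 KO, they were 0.30 for Sesn2 (limma adjusted p = 0.0212) and -0.35 for Rps27l (0.0273). Mdm4 was the member called in both knockouts against NF90/NF110 WT, which share the WT experiments.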

How the results depend on the processing

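Counts of members called are given, and the cause of each change was not tested. In NF45 KO minus NF45 WT, the count was 24, ranged from 0 to 30 when 1 library was left out, and was 25 with the replicate block (24 higher and 1 lower, Gdf15, at -0.54, limma adjusted p = 0.0357); 23 were higher and 1 lower (Xpc) with edgeR. The input comparisons gave 0 with any library left out. For NF90+NF110 KO minus NF90/NF110 WT inputs the count was 2 with the replicate block (Phlda3 and Plk2), 15 with the chromosome 6 level as a term and 6 with DESeq2. For NF110 KO minus NF90/NF110 WT inputs it was 9 with the chromosome 6 term and 3 with DESeq2, and for NF90+NF110 KO minus NF110 KO inputs 3 and 1. IP over input counts with a range of 15 to 23 (NF90+NF110 KO), 12 to 16 (NF110 KO) and 18 to 25 (NF90/NF110 WT) were found when 1 experiment was left out. Without the block per experiment they were 4, 4 and 8. For the difference in enrichment NF90+NF110 KO minus NF90/NF110 WT, the count of 5 was 3 with no filter, 1 with quantile scaling, 0 without trend or robust fitting, 0 without the block and 8 with edgeR, and 0 to 7 with 1 experiment left out. For NF110 KO minus NF90/NF110 WT, the count of 5 was 2 with no filter, 1 without trend or robust fitting, 0 without the block and 9 with edgeR, and 0 to 14 with 1 experiment left out: 14 without NF110 KO experiment 1, and 0 without NF110 KO experiment 2 or 3 or NF90/NF110 WT experiment 3. For NF90+NF110 KO minus NF110 KO, the count of 2 was 1 with no filter, 0 without trend or robust fitting and 0 without the block, and 0 to 3 with 1 experiment left out. Directions turned in 4 uncalled differences. With 1 library left out, Cdkn1a in NF45 KO ranged from -0.05454 (without NF45 WT replicate 2) to 0.2192 (without NF45 WT replicate 1, where it was called), Mdm4 in NF90+NF110 KO against NF90/NF110 WT inputs from -0.01154 to 0.1834 (without NF90+NF110 KO input 1 and 2), and Trp53 in NF110 KO against NF90/NF110 WT inputs from -0.07429 to 0.2105 (without NF110 KO input 3 and 1). Cdkn1a in the NF90/NF110 WT IP was -0.04539 with quantile scaling. Depth was lowest in the inputs.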
